A study of Mus musculus with 11 samples.

Results

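Total nuclear RNA of mouse embryonic fibroblasts (MEFs) with or without HuR was compared on 5 of the 11 arrays of the series, at 15444 of the 45281 probes of the Illumina MouseWG-6 v2 platform. A probe was taken when its detection p-value, which sets its signal against the negative controls of the same array, was at most 0.01 on each of the 3 HuR KO arrays or on both HuR WT arrays. Of these probes, 12475 passed on all 5 arrays, 2451 passed on both HuR WT but not on every HuR KO array, and 518 passed on every HuR KO but not on both HuR WT arrays. The other 6 arrays measured RNA from anti-hnRNP A1 immunoprecipitations (IPs).

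HuR WT cells contain the HuR protein and HuR KO cells, from knockout embryos, lack it. No treatment is named for either, and the methods describe both as MEF cultures from embryos of the same stage, of which the HuR KO culture grew more slowly. RNA was taken from the nuclear extract before the IP. The labels call the arrays of a group independent experiments and state that 1 HuR WT array of nuclear RNA failed quality control. The sources used here do not give the number of embryos behind each culture, so the HuR deletion and other differences between the cultures cannot be told apart. In nuclear RNA from whole cultures, a smaller number of cells with a transcript and less of it per cell cannot be told apart either.

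HuR (gene Elavl1) is a ubiquitous member of the ELAV family of RNA-binding proteins. Most of it is found in the nucleus, from which it can move to the cytoplasm. It recognises stretches rich in U and A, and its binding is best known for slowing the decay of an mRNA. It also takes part in splicing, polyadenylation and export. A difference in nuclear RNA between cells with and without such a protein can come from synthesis, processing, decay or export, and the array reads only the amount of hybridised RNA.

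The deposited table lists Illumina probe identifiers, and none of the tables used here pairs them with genes or with probe sequences. The level of Elavl1 itself, fibroblast markers and gene groups were therefore not analysed here, and the results are given for probes. Intensities were background-corrected, quantile-normalized over the 5 nuclear RNA arrays and converted to log2, and the groups were compared by limma with Benjamini-Hochberg adjustment over the 15444 probes. To be called, a probe had to pass an adjusted p of 0.05 and to differ by more than 2-fold. All levels below are normalized log2 intensities of a probe, fold changes are HuR KO over HuR WT, and signals of different probes are not compared as amounts of RNA.

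The 5 arrays differed in how close they were to each other. Mean deposited intensity ranged from 224 to 326, and 14034 to 16206 probes of an array were above background, with both HuR WT arrays above all HuR KO arrays in this number. Across the probes kept, HuR KO arrays 2 and 3 correlated at 0.995, with 14 probes over 2-fold apart. HuR KO array 1 correlated with them at 0.938 and 0.936 and was over 2-fold from them at 1752 and 1799 probes. The HuR WT arrays correlated at 0.97, with 630 probes over 2-fold apart. Between the cell types the correlations were lower, at 0.874 to 0.898. Most of the variance (66.4%) lay on a component between HuR KO and HuR WT, the next component (24.2%) separated HuR KO array 1 from the other HuR KO arrays, and another (7.91%) separated the HuR WT arrays from each other. These correlations are across probes, which are not independent replicates, and precision is limited by how few arrays there are.

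Between the cell types, 1646 probes were called in nuclear RNA (limma), which is 10.7% of those tested. RNA was higher in HuR KO at 758 probes (4.91%) and lower at 888 (5.75%). The higher probes had a median log2 fold change of 1.47, with quartiles of 1.21 and 1.99. The lower probes had a median of -1.64, with quartiles of -2.32 and -1.29. Over all probes tested the median was -0.01 and the median absolute log2 fold change 0.40. The standard error of a fold change had a median of 0.24 on the log2 scale. At each of the 1646 probes called, no HuR KO array overlapped with a HuR WT array, against 51.1% of all probes tested (7887). The call rule itself favours this contrast, so it is not separate evidence for the calls. The fold threshold passed through many similar probes, since 171 called probes had an absolute log2 fold change of at most 1.1 and another 208 with an adjusted p under 0.05 lay between 0.9 and 1.

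The number of calls moved when single HuR KO arrays were left out and the detection filter was applied again to the rest. It was 768 without HuR KO array 2 and 798 without HuR KO array 3. It was 2620 without HuR KO array 1, or 2435 when the same 15444 probes were tested without it. Without array 1, the HuR KO spread is that between arrays 2 and 3 alone. Leaving out a HuR WT array leaves 1 in that group, with no spread of its own, so counts for those fits are not given. HuR KO arrays 2 and 3 were far closer to each other than any other pair of arrays, at a correlation of 0.995. The labels call them independent experiments, which the arrays themselves cannot show. The 1646 calls and their p-values count them as 2 separate replicates. With HuR KO arrays 2 and 3 averaged and counted as 1 array, 781 probes were called, of which 780 were among the 1646.

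**Figure D1:**
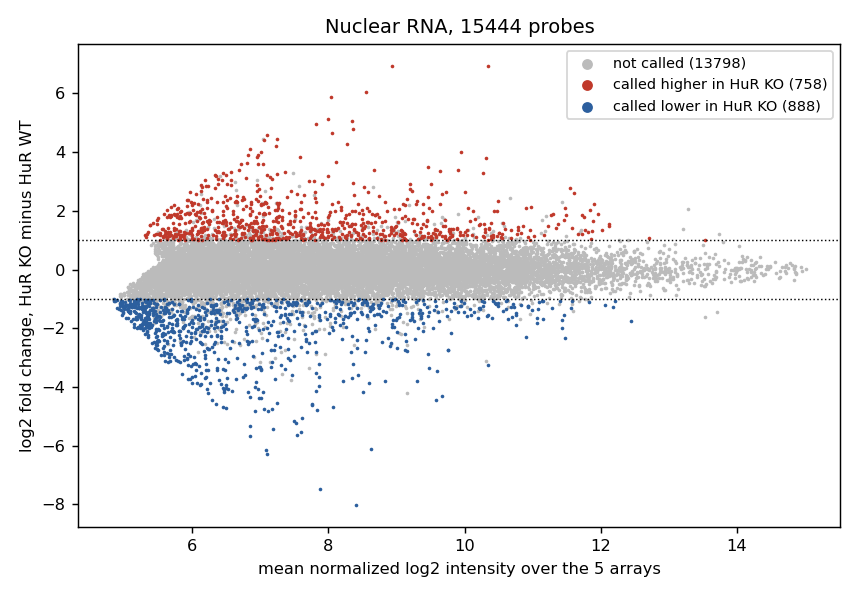
Log2 fold change of nuclear RNA (HuR KO minus HuR WT, y axis) against the mean normalized log2 intensity over the 5 arrays (x axis) for each of the 15444 probes, with dotted lines at a fold change of 2. The 758 higher and 888 lower probes called are coloured, and grey points outside the lines are probes over 2-fold that were not called.

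More probes passed large fold changes on the lower side. Over 4-fold, 182 probes were higher and 299 lower in HuR KO, which is 24% of the higher and 33.7% of the lower calls. Over 8-fold there were 51 higher and 120 lower probes, and over 16-fold 17 and 44. At probes above background on all 5 arrays the counts were closer over 4-fold, at 87 higher and 84 lower probes, while over 8-fold they were 13 and 23.

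**Figure D2:**
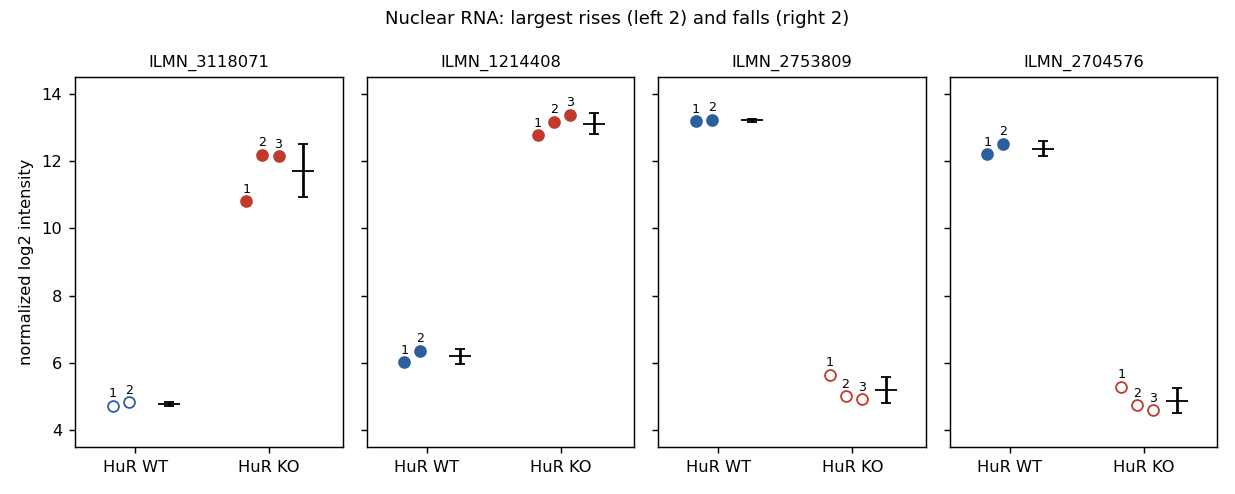
Normalized log2 intensity (y axis) of the 2 probes with the largest rise and the 2 with the largest fall in HuR KO nuclear RNA, for each array (points, numbered by replicate) with the group mean and SD beside them (black; n = 2 in HuR WT, n = 3 in HuR KO). Filled points were above background and open points were not; in each panel the arrays of one cell type lie far above those of the other.

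The largest fitted rise was at probe ILMN_3118071. Its deposited intensity was 7.3 and 10.3 on the HuR WT arrays and 1520, 5710 and 4740 on the HuR KO arrays. All 3 HuR KO arrays were high and neither HuR WT array was above background, with detection p-values of 0.143 and 0.116. On the log2 scale the HuR KO arrays read 10.81, 12.19 and 12.14, a mean of 11.72 ± 0.78 (SD, n = 3), so that array 1 was the lowest. On group means HuR KO exceeded HuR WT here at least 82.1-fold, a bound that leaves out the spread between arrays. The fitted fold change had a 95% confidence interval of 58.3-fold to 258-fold, which reaches below this bound. The probe had been kept through its HuR KO arrays alone, and in a limma fit to all 45281 probes, with no filter on detection, its adjusted p was 0.00976. For such a bound each array of the dimmer group was given the lowest signal that it detected, or the probe's signal where that was larger.

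Probe ILMN_1214408 was above background on all 5 arrays. Its intensity was 52.8 and 67.6 in HuR WT and 6380, 11200 and 11100 in HuR KO. The arrays of HuR KO were thus all far above those of HuR WT, with array 1 again the lowest of the 3. HuR KO had a log2 level of 13.11 ± 0.31 (SD, n = 3) and HuR WT one of 6.19 ± 0.23 (SD, n = 2). The difference was 6.92 with a standard error of 0.25, at a limma adjusted p of 2.18e-04. This is 121.1-fold with a 95% confidence interval of 79.9-fold to 183-fold. Among the higher probes detected on all 5 arrays it stood apart, since the next largest fold change was 19.6.

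The largest fall was at probe ILMN_2753809, with intensities of 8550 and 9210 in HuR WT and 23.4, 19.3 and 14.4 in HuR KO. Both HuR WT arrays were bright and no HuR KO array was above background, although array 1 came closest with a detection p-value of 0.0171. The log2 level in HuR WT was 13.21 ± 0.04 (SD, n = 2), which the HuR KO mean fell below by at least 192-fold. This bound too leaves out the spread between arrays. The fitted fall had a 95% confidence interval of 165-fold to 406-fold, which reaches below the bound. This probe was kept through HuR WT alone, and its adjusted p in the limma fit without a detection filter was 0.00178. Probe ILMN_2704576 showed the same pattern. Its intensity was 4360 and 5500 in HuR WT and 16.5, 9.59 and 2.16 in HuR KO, where no array was above background. The decrease between group means was at least 107-fold, and the fitted fall had a 95% confidence interval of 114-fold to 282-fold. Probe ILMN_2704576 too was kept through HuR WT alone, and its adjusted p in the limma fit without the filter was 0.00207.

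Beyond these probes, the 20 largest rises had log2 fold changes of 3.83 to 6.94 and HuR KO levels of 8.38 to 13.11. In 13 of the 20 neither HuR WT array detected the probe, and the bounds ran from 8.16-fold to 82.1-fold. The 20 largest falls ran from 4.68 to 8.02 in absolute log2 fold change, with HuR WT levels of 9.32 to 13.21. In 10 of them no HuR KO array was above background, with bounds of 12.9-fold to 192-fold. Where all 5 arrays measured the probe, the 20 largest rises were 6.81-fold to 121-fold and the 20 largest falls 9.45-fold to 25.7-fold. Among those falls, the HuR KO levels of 5.72 to 9.05 were still measured, against 9.16 to 12.29 in HuR WT.

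Signal level and direction went together at the dim end of the array. When the probes were ranked by their mean level over the 5 arrays and divided into 4 bins of 3861, the dimmest bin, from 4.84 to 6.43, held 177 higher and 440 lower calls. In the next bin there were 246 and 199, in the one above it 193 and 150, and in the brightest bin 142 and 99. Higher calls outnumbered lower ones in every bin but the dimmest. The share of probes called lower was 11.4% in the dimmest and 2.56% in the brightest bin, and the share called higher 4.58% and 3.68%. The standard error of the fold change had a median of 0.25 in the dimmest and 0.21 in the brightest bin. The detection rule itself differs between the groups, because a probe enters through 2 HuR WT or through 3 HuR KO arrays. How far this rule accounts for the excess of lower calls was not tested.

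**Figure D3:**
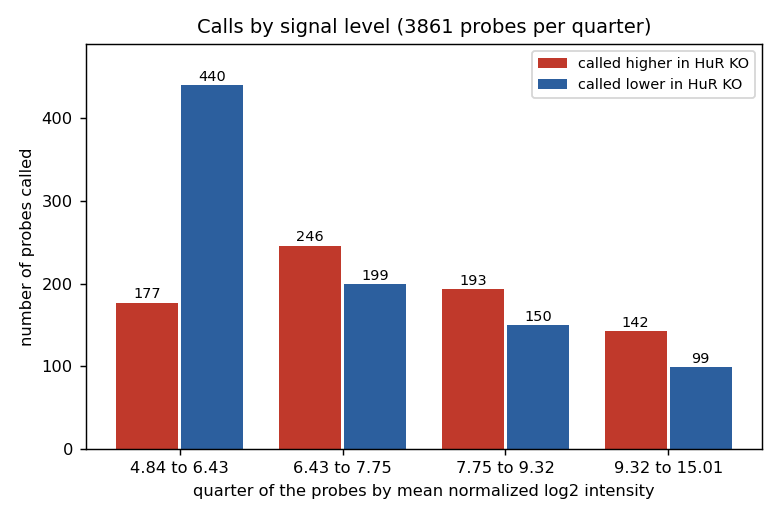
Number of probes called higher or lower in HuR KO nuclear RNA (y axis, bars) in 4 equal bins of the probes by mean normalized log2 intensity over the 5 arrays (x axis, range of the bin). Lower calls outnumber higher ones in the dimmest bin, 440 against 177, and are fewer in the other bins.

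Many calls rested on a group at background. Of the 758 higher probes, 520 were above background on both HuR WT arrays, 78 on 1 and 160 on neither. Of the 888 lower probes, all 3 HuR KO arrays detected 383, while 41 were above background on 2, 73 on 1 and 391 on none. Among probes detected on all 5 arrays, 7.24% were called, 520 higher (median log2 fold change 1.38) and 383 lower (median -1.46). Here the higher calls were the more numerous. In a fit to these probes alone, 517 higher and 382 lower probes were called.

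Detection was confined to HuR KO (3 of 3 arrays against 0 of 2) at 229 probes and to HuR WT at 805. The rule asks for 3 arrays in the first case and 2 in the second. The lowest log2 level detected was also lower on the HuR WT arrays (5.30 and 5.41) than on the HuR KO arrays (5.76, 5.56 and 5.57). The counts are therefore not compared with each other. Most of these probes were dim where they were detected. The 229 had a median level of 6.42 in HuR KO, from 5.69 to 11.72, and the 805 a median of 6.01 in HuR WT, from 5.38 to 13.21. Of the former 160 (69.9%) were called and of the latter 391 (48.6%), against 10.7% of all probes tested, but these probes were kept through the group where they are high and the shares are a description. The bound on the fold was over 2 for 118 and 193 of them, over 4 for 44 and 72, and over 16 for 5 and 9. A log2 level over 10 was reached by 4 of the probes detected in HuR KO and by 8 of those detected in HuR WT. These tallies can only rise when an array is left out, since fewer arrays then have to meet the rule. The 229 became 451 without HuR KO array 1, 384 without HuR WT array 1 and 363 without HuR WT array 2, and the 805 became 1579 without HuR WT array 2.

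Abundant signals changed as well, though their median absolute log2 fold change was below the 0.40 of all probes tested. At the 591 probes with a log2 level over 12 in at least 1 cell type, the median absolute log2 fold change was 0.27, and 8.29% were called, against the 10.7% of all probes. Of these, 26 were higher and 23 lower, with 6 and 8 over 4-fold.

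HuR KO array 1 differed from the other HuR KO arrays at 1736 probes (11.2%) by over 2-fold, lying above their mean at 799 and below at 937. Among the 1646 calls, 155 (9.42%) were such probes, a share close to the 11.2% of all probes tested. The called probes had about the same median log2 fold change on each HuR KO array, 1.45 on array 1 and 1.51 on array 3 for the higher probes and -1.59 and -1.68 for the lower probes, with array 2 between them. Among the calls over 16-fold, array 1 lay closer to HuR WT, with medians of 4.19, 4.95 and 4.89 for the 17 higher and -4.13, -4.96 and -4.91 for the 44 lower probes. Relative to the mean of arrays 2 and 3, array 1 deviated against the direction of the fold change at 57.3% of the calls. Over all probes tested this share was 50.5%. These medians describe probes that were called on the same arrays.

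When HuR KO array 1 was left out and the same 15444 probes were tested, 876 probes were called that had not been called with it, 357 higher and 519 lower. Choosing them this way favours probes that differ more on arrays 2 and 3 than on array 1, and the following values only describe them. Oriented by the direction of the call, their median log2 fold change was 1.26 on arrays 2 and 3 and 0.40 on array 1. At 645 of them array 1 lay on the same side of the HuR WT mean, at 69 by over 2-fold, and at 231 it lay on the other side, at 47 by over 2-fold. Of the calls made with all arrays, 1559 were also made without array 1 and 87 were not.

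**Figure D4:**
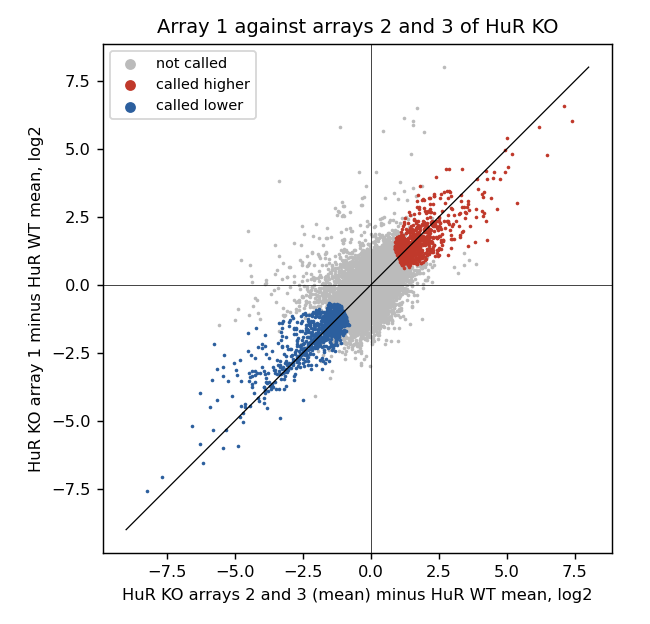
Log2 difference from the HuR WT mean on HuR KO array 1 (y axis) and on the mean of HuR KO arrays 2 and 3 (x axis) for each of the 15444 probes, with the line of equal differences. Called probes (coloured) follow the line, the largest changes with array 1 often nearer 0, while grey points far above it are brighter on array 1 than on arrays 2 and 3, at 26 probes by over 16-fold.

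The departures of array 1 were uneven in size. At 26 probes it was over 16-fold above the mean of arrays 2 and 3, by up to 7.20 on the log2 scale, and at no probe over 16-fold below, where the largest difference was -3.13. The 26 probes had median levels of 10.63, 5.56 and 5.60 on HuR KO arrays 1, 2 and 3 and of 8.06 in HuR WT. At 22 of them both HuR WT arrays were above background, and at 19 array 1 was over 2-fold above the HuR WT mean. None was called as a difference between the cell types (limma). The wide spread within HuR KO that they were picked for makes a call unlikely from the start. The largest difference within HuR WT was 3.68 and that between HuR KO arrays 2 and 3 was 1.41.

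The departures of array 1 were also seen in the IP RNA of the same cells. With all 11 arrays normalized together, the HuR KO IP array numbered 1 was over 2-fold above the other HuR KO IP arrays at 510 of the 799 probes (63.8%), against 8.44% of all probes tested. It was over 2-fold below them at 451 of the 937 probes (48.1%), against 7.13%. At 0 probes did the nuclear RNA and the IP depart over 2-fold in opposite directions, and at 14 of the 26 probes the IP departed over 16-fold too. By the methods nuclear RNA was taken from the extracts that went into the IPs, so the 2 kinds of array do not come from independent cultures.

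Differences that were over 2-fold but not called numbered 656, of which 242 were higher and 414 lower. Their standard error had a median of 0.43 on the log2 scale, against 0.24 for the calls, a contrast that the call rule itself favours. At 363 of them HuR KO array 1 was over 2-fold from the other HuR KO arrays, at 158 the HuR WT arrays were over 2-fold apart, and at 130 the arrays of the 2 cell types overlapped.

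The IP arrays gave a reading of the same cells on other arrays. At the 576 higher probes with a 2-fold to 4-fold change, the median log2 difference between HuR KO and HuR WT was 1.34 in nuclear RNA and 1.06 in the IP. At the 17 higher probes over 16-fold these medians were 4.66 and 4.61. At the lower probes they were -1.38 and -1.12 for the 589 probes of 2-fold to 4-fold, and -4.60 and -4.43 for the 44 over 16-fold. The probes and fold classes were chosen by the nuclear RNA values, so the medians are a description. The nuclear RNA medians come from the 5 arrays normalized together and the IP medians from all 11 arrays normalized together. Probe ILMN_3118071 read 1990, 6340 and 4350 on the HuR KO IP arrays and 8.19, 2.71 and 9.95 on those of HuR WT, where it was not above background. Probe ILMN_2753809 read 10500, 15700 and 13200 in the HuR WT IP. In the HuR KO IP it read 27.3, 16.9 and 23.4, with detection p-values of 0.00214, 0.0128 and 0.00321, so that 2 of these arrays were above background where no nuclear RNA array of HuR KO was.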

How the data were processed

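Nuclear RNA was measured on 5 of the 11 arrays, in groups taken from the labels, with biotin-labelled cRNA on 1-colour BeadChips. The table that the authors deposited holds 1 intensity per probe and array, left without normalization, beside its detection p-value. Of the intensities of an array, 32.7% to 36.3% lie below 0, as after a background subtraction. No source used here names the software for it. The deposited detection p-value of HuR KO array 3 carries the name of array 1 and was assigned by its position beside the signal of array 3.

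From these, limma 3.58.1 under R 4.3.3 gave the normalized values, by normal-exponential background correction from the detection p-values (offset 16), quantile normalization and log2. The offset understates changes near background. One linear model of the 2 group means was fitted to all probes kept, and tested on simulated data. The simulated arrays varied independently, with the same spread on every array of a probe. They therefore did not hold the closeness of HuR KO arrays 2 and 3. The methods name a t-test instead, which was run as an alternative together with other corrections, scalings and filters, a replicate block and leaving out each array. The named probes are the 2 largest rises and the 2 largest falls among called probes whose arrays do not overlap. Gene lists and the averaging of probes per gene, which were planned, could not be used without gene names. The probes, lists and tests were chosen with earlier results of these data known. The p-values of limma and the t-test rest on the spread between these arrays, which limma combines with that of the other probes. Detection p-values instead set a signal against the negative controls of its own array.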

Additional observations from a re-analysis of the deposited data

How the results depend on the processing

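With HuR KO replicates 2 and 3 averaged, an alternative chosen after seeing the data, 781 probes were called, 332 higher and 449 lower. The methods' t-test with Benjamini-Hochberg adjustment called 386 probes, 162 higher and 224 lower, and at its unadjusted threshold 771 higher and 899 lower. Over the probes detected on all 5 arrays 899 were called and 382 were lower, with 57.5% of the calls higher instead of 46.1%. With no detection filter 1016 were called, 470 higher and 546 lower. Array weights gave 2463 calls, 1077 higher and 1386 lower. With the replicate number as a replicate block 896 were called, 382 higher and 514 lower; same-numbered arrays of the cell types deviated together at -0.07, so the numbers were not taken to pair them. Leaving out 1 array moved the calls between 394 and 2620, the higher ones between 134 and 1222 and the lower ones between 260 and 1398. With 1 array left out, the probes detected in HuR KO alone numbered 257 to 451 and those in HuR WT alone 925 to 1579. These detection counts can only rise when an array is left out. The cause of the other shifts was not tested. An offset of 50, no further background correction, median scaling, a trend in the prior, all 11 arrays in 1 fit and no fold threshold kept each count within 1.5 times. Each shared call had the same direction under every setting. The 4 named probes kept their direction and their call wherever they were tested, in 16 settings for ILMN_1214408 and 15 for each of the others. Only ILMN_1214408 was among the probes detected on all 5 arrays. The largest adjusted p over limma and the methods' t-test was 0.046, for ILMN_3118071. All were picked as the largest changes on these arrays, which itself favours such an outcome. Averaging of probes per gene was not run.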
